A study of Mus musculus with 4 samples.

Results

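The genes described here are 36 genes of DNA replication and cell division, given as a list of symbols. All 36 were found among the 27998 genes of the files. They were measured in single cells of MT4788 mammary tumours from FVB mice of WT genotype, collected on day 4. CD45 beads had enriched the leukocytes, with over 90% of cells labelled CD45-positive and negative for CD31 and EpCam, and 10000 cells were loaded per condition for 10x Genomics 3′ sequencing. There was 1 library for each of 4 treatments. The control mice had Saline+PBS, the phenformin mice Saline+Phenformin, the poly I:C mice Poly I:C+PBS, and the combination was Poly I:C+Phenformin. The labels give no dose, sex, age or number of animals behind a library. Phenformin belongs to the biguanides, which slow mitochondrial respiration, and poly I:C is an RNA duplex made to mimic a virus and set off innate immune receptors. With 1 library per treatment there was no replicate and no test between treatments. Every interval below is a 95% interval for counting error only, and treatment cannot be told apart from the animal, the tumour or the preparation.

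A dividing cell copies its DNA in S phase and separates the copies in mitosis, and the transcripts of these steps come in waves. In resting cells the DREAM complex keeps many of these genes silent. E2F factors release the S phase genes first, and the B-Myb and FoxM1 complexes later activate the G2 and mitosis genes through an element called the CHR, often beside CCAAT boxes. In tumours the same transcripts mark dividing cancer cells and also T cells and macrophages that expand within the tumour, so the cells that hold them have to be known before a level can be read.

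Many promoters of the list hold the letters of these elements, and 3 are printed to show the classes side by side. RefSeq promoter windows of GRCm38.p6, from 250 bases before to 50 after the start, matched 29 of the 36 symbols. Both strands were searched for the CHR (TTTGAA), the CCAAT box (CCAAT) and an E2F-like site (TTTCCCG or TTTGGCG). Capitals mark these letters on either strand. Ccnb2, chr9:70421505-70421804 on the minus strand, encodes cyclin B2, and Plk1, chr7:122159185-122159484 on the plus strand, encodes a kinase of mitotic entry. Mcm5, chr8:75109259-75109558 on the plus strand, encodes a subunit of the replicative helicase.
Ccnb2: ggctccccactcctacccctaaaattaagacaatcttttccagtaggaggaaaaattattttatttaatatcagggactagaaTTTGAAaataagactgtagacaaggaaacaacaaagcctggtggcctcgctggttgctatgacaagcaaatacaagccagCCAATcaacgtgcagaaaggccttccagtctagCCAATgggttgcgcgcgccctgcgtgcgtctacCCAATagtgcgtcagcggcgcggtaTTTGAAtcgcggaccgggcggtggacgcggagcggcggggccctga
Plk1: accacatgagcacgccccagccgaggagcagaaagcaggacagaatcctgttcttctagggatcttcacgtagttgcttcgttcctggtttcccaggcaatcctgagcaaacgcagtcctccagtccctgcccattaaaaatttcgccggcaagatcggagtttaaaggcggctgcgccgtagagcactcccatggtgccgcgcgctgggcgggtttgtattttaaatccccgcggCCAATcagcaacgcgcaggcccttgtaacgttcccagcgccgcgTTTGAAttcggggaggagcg
Mcm5: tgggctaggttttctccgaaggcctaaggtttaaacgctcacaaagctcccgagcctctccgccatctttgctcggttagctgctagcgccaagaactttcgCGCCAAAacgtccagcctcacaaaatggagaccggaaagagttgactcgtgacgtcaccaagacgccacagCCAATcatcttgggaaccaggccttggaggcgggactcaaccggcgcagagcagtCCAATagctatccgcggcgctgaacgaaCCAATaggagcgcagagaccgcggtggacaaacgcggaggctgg
The CHR letters were in 12 of 17 matched G2 and mitosis members, or 70.6%, in 1 of 10 S phase members, and in 20.2% of all 27025 genes with a window. CCAAT was in 25 of 29 members, or 86.2%, against 41.1% of all genes. Both together were in 70.6% of the G2 and mitosis members and in 7.97% of all genes. The E2F-like letters were in 4 of 10 S phase members (Mcm3, Mcm5, Mcm6 and Mcm7), in 2 of 17 G2 and mitosis members (Birc5 and Nusap1), and in 5.55% of all genes. Tk1 and Tyms had none of these letters in their windows. These are matches of letters, not measured binding.

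Counts are of unique molecular identifiers (UMIs, 1 per captured transcript). A cell was used if it showed 200 genes or more and if mitochondrial UMIs made up less than 20%. That left 5453 to 8268 cells per library, with a median of 5902 to 8430 UMIs per cell and 57332308 to 76070132 UMIs in all. Between 27 and 43 cell barcodes of a library recurred in another library. Cells were gated on raw UMIs of markers that are not on the list. T cells needed 2 UMIs of Cd3d, Cd3e and Cd3g together, with 2 of Cd8a and Cd8b1 for the CD8 T gate or 1 of Foxp3 for the Treg gate. NK cells needed 2 of Ncr1, Klrb1c and Klre1 with 0 of the Cd3 genes, macrophages 3 of Csf1r, Cd68 and Adgre1, dendritic cells 1 of Flt3, and tumour cells 5 of Krt5 and Krt14 with 0 of Ptprc. The CD8 T gate held 891, 916, 1619 and 1848 cells in the order control, phenformin, poly I:C and combination, which is kept below. The macrophage gate held 2030, 2268, 2641 and 2759 cells, the Treg gate 283, 252, 166 and 293, the tumour gate 376, 209, 592 and 420, the dendritic gate 300, 269, 203 and 218, and the NK gate 190, 109, 126 and 146. A cell could pass more than 1 gate, as 217 to 354 cells per library did. Levels are in CPM, the share of a gene in all UMIs summed over a gate, on the usual CPM scale. Markers that no gate used were summed as a check. The 5 macrophage markers reached 11024 to 26544 CPM in the macrophage gate and 74.8 to 113 CPM in the tumour gate. With poly I:C they also reached 10052 CPM in Treg and 6952 CPM in NK cells. The 6 dendritic markers did not set the dendritic gate apart. They summed to 5675, 5769, 4468 and 4630 CPM there, and to 6150, 6366, 5530 and 5542 CPM in the macrophage gate. Ccnb1, Ccnb2, Pcna, Stmn1 and Tyms have processed pseudogene copies, so their counts carry some uncertainty. Mki67 lies at chr7:135689784-135716361 and Top2a at chr11:98992943-99024189, both on the minus strand of GRCm38 (GENCODE vM21).

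Of the gates, the T cell gates held the highest summed level of the 36 genes. The sum in the CD8 T gate was 5775 CPM in control, 5245 with phenformin, 3886 with poly I:C and 5193 in the combination. The Treg gate held 5176, 3866, 2891 and 3731 CPM, and both T cell gates had their highest value in control and their lowest with poly I:C. Tumour cells held 2310, 2414, 2631 and 2824 CPM, where control was the lowest library and the combination the highest. Macrophages held 1179, 1029, 1025 and 1333 CPM, with the combination above the other libraries. Over all cells the sum was 2451, 2155, 2039 and 2537 CPM. A member was counted as higher or lower where its ratio was 1.5-fold or more and the interval did not include 1, among genes with 60 or more UMIs over the libraries and a mean of 10 CPM. Of the 31 members that passed this filter over all cells, none was higher or lower with phenformin (0.675% of all 8004 genes higher, 3.74% lower). With poly I:C Mcm2 and Rrm1 were lower and none was higher (6.38% and 2.4%). Tyms was higher in the combination and none lower (2.37% and 4.5%), and Tk1 and Ube2c were higher there than with phenformin and none lower (2.91% and 2.56%). No member passed against poly I:C (1.21% and 1.04%). Neutrophils, which do not divide and served as background, held 927, 827, 699 and 1392 CPM, of which 70.0 to 79.2% came from Hmgb2 alone. The combination was highest there too, above the 1333 CPM of macrophages in that library. Hmgb2 encodes a chromatin protein that is also made outside the cell cycle.

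**Figure D1:**
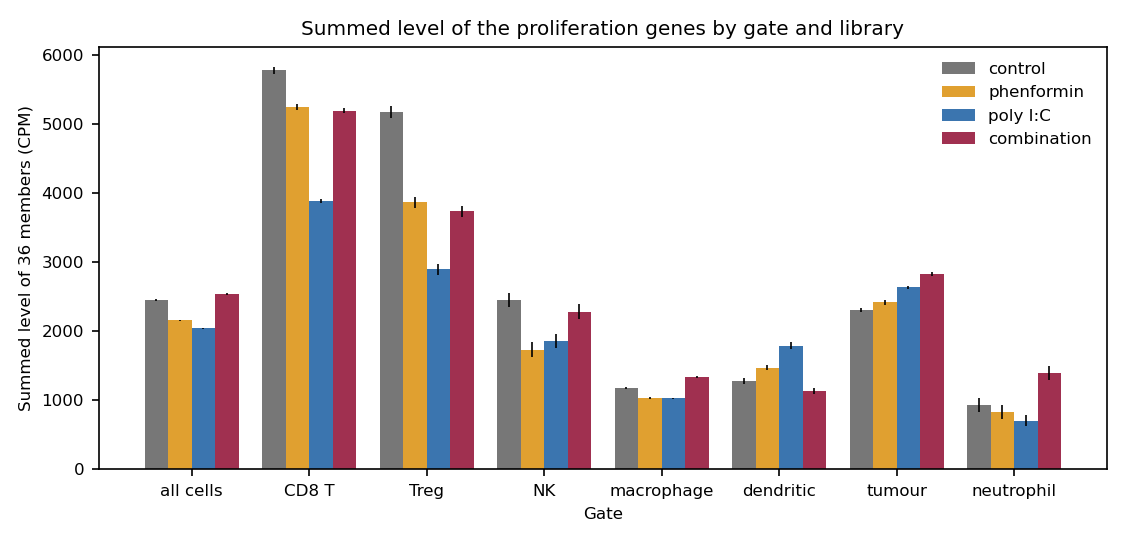
Summed level of the 36 genes in CPM (vertical axis, linear from 0) for each gate and library; bars are single libraries and error bars are 95% Poisson intervals. CD8 T cells run from 3886 CPM with poly I:C to 5775 in control, while in tumour cells the combination is highest at 2824 CPM.

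The mix of the 36 differed between cell types. In CD8 T cells Hmgb2 gave 32.3 to 34.4% of the UMIs of the list, and was the highest member in each library. Stmn1, whose product stathmin destabilizes microtubules, and Cenpa, the centromeric histone, came next over the libraries pooled, although Top2a and Mki67 were above Cenpa in control. In tumour cells Hmgb2 gave 13.5 to 15.9%. Birc5 was there at 312, 344, 394 and 415 CPM and Hmgb2 at 317, 384, 355 and 385 CPM, so Birc5 was above Hmgb2 in both poly I:C-treated libraries and below it in the others. Birc5 encodes survivin of the chromosomal passenger complex, and its level in CD8 T cells was 150, 142, 98.8 and 159 CPM. In each of the 4 libraries 15 members, among them Mki67, Top2a, Stmn1, Ccnb2, Bub1 and Mcm5, had their highest level in the CD8 T gate. Another 7 were highest in the tumour gate in each library: Birc5, Tk1, Cdk1, Ccnb1, Cdc20, Aurka and Cenpe. The other 14 changed place between gates with the library, such as Mcm2, Mcm3, Pcna and Ezh2, which led in Treg cells in control and in CD8 T cells in the other libraries.

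Cells with at least 2 UMIs of Mki67 and Top2a together were called cycling. Mki67 coats mitotic chromosomes and Top2a untangles DNA. In the CD8 T gate they were 38.8% of cells in control (35.6 to 42.1%) and 40.3% in the phenformin library (37.1 to 43.5%). They were 28.4% in the poly I:C library (26.2 to 30.7%) and 36.6% in the combination (34.4 to 38.9%). Poly I:C alone stood below the other libraries, whose intervals overlap. After thinning each cell to 2000 UMIs the shares were 22.4, 21.4, 14.6 and 20.8%, with poly I:C again lowest. Macrophages held 13.2, 12.7, 14.8 and 17.6% cycling cells, and 3.4, 2.27, 3.17 and 4.82% after thinning, with the combination highest on both scales. With all UMIs its interval (16.18 to 19.05%) overlapped that of poly I:C (13.47 to 16.22%). After thinning its interval (4.04 to 5.69%) overlapped that of control (2.65 to 4.29%). Tumour cells held 27.4, 29.2, 36.7 and 35.2%. At matched depth these tumour shares were 10.1, 11.1, 11.8 and 8.67% with overlapping intervals, so no difference was detectable at that depth, while with all UMIs the control interval (22.9 to 32.2%) lay below that of poly I:C (32.8 to 40.7%). Treg cells held 34.3, 30.2, 31.9 and 27.6%, also with overlapping intervals. Neutrophils held 0.654, 0, 0.806 and 1.42%, where 0 of 134 cells allows up to 2.24% (3 counts) and the Clopper-Pearson upper limit is 2.715%, at a median depth of 1844 to 2189 UMIs. After thinning, neutrophils held 1.64, 0, 0 and 0.893%, with upper limits of 8.8, 4.35, 5.44 and 4.87%. The thinned macrophage shares lay within these intervals, so at that depth they were not separated from this background. Thinning left out between 2 and 40 cells per library in each gate other than neutrophils, which lost 51 to 99.

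**Figure D2:**
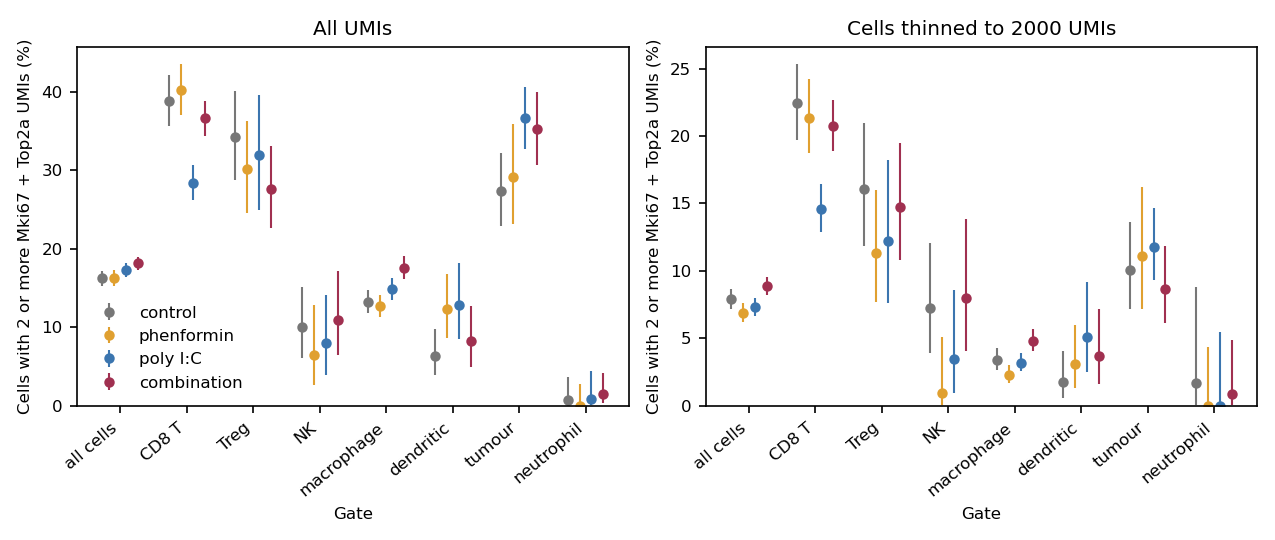
Percent of cells with 2 or more UMIs of Mki67 and Top2a, by gate (horizontal axis) and library, with all UMIs (left) and after thinning to 2000 UMIs per cell (right); points are libraries, lines are 95% Clopper-Pearson intervals, and the vertical scales of the panels differ. The poly I:C point lies lowest of the 4 for CD8 T cells in both panels, at 28.4% and 14.6%.

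The cycling cells also held most of the other members. On average over the libraries they held 96.7% of the UMIs of Ccna2 (cyclin A2), 95.5% of Plk1, 95.3% of Cenpf, a kinetochore protein, and 95.2% of Ccnb1 (cyclin B1), although they were 16.2 to 18.2% of cells and held 30.3 to 33.1% of all UMIs. Other members were held less by these cells. Pcna, the sliding clamp of the polymerases, had 53.2% there, Cenpa 55.7%, Mcm4 56.7% and Ezh2, the methyltransferase of Polycomb repressive complex 2, 60.3%. The choice of cells used Mki67 and Top2a, so those genes are left out of this count. Cells with and without the 2 UMIs had 17 to 19 and 2 to 3 of the other 34 members detected per cell (medians). Some 56.7 to 64.6% of cells with Mki67 also had Top2a.

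**Figure D3:**
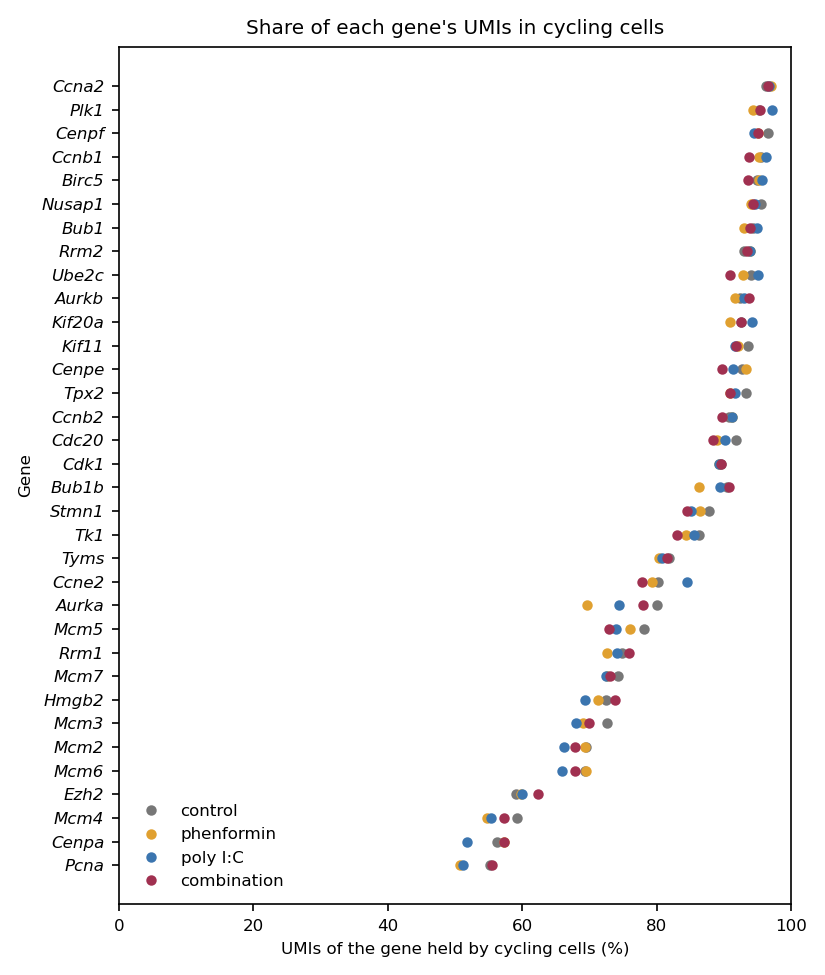
Share of each gene's UMIs that lies in cycling cells (horizontal axis, percent), for the 34 members other than Mki67 and Top2a; each point is 1 library. Ccna2, Plk1, Cenpf and Ccnb1 lie above 90% in every library, and Pcna, Cenpa and Mcm4 have the lowest means.

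In CD8 T cells with poly I:C, members of every role were lower than in control. The sum was 0.673 times the control level (0.665 to 0.681). Kif20a, a kinesin of cytokinesis, missed the count filter in this gate, and of the other 35 members 20 were lower and none higher. Over all 7472 genes tested, 8.07% were lower and 5.89% higher. The median log2 ratio was −0.67 over the 35 members and −0.11 over all genes.

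Of the 7 genes of replication licensing and the clamp 6 were lower. Mcm2, a helicase subunit, was at 77.2, 62.8, 33.9 and 44.2 CPM, and its poly I:C level was 0.438 times control (0.392 to 0.49). Mcm5 was at 119, 104, 64.1 and 85.2 CPM, a ratio of 0.539 (0.495 to 0.587), and Mcm3, Mcm4, Mcm7 and Pcna passed the limit as well. Pcna was at 169, 165, 105 and 135 CPM. Mcm6 was lower by less, at 0.696 times control. In each of these genes except Mcm7 control was the highest library, and in all of them poly I:C was the lowest.

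The genes of nucleotide supply differed among themselves. Rrm1, the large subunit of ribonucleotide reductase, was at 127, 106, 62.8 and 86.2 CPM and was 0.496 times control with poly I:C (0.456 to 0.539). Rrm2, the small subunit, stood at 0.747 and Tk1, thymidine kinase, at 0.761 times control. Tyms, thymidylate synthase, was at 66.2, 90.2, 66.8 and 95.6 CPM, and both phenformin-treated libraries lay above the other two. Its ratio to control was 1.36 with phenformin, 1.01 with poly I:C, and in the combination 1.44 (1.32 to 1.58). Tyms was picked out after its values were seen.

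Mitotic genes were lower too. Mki67 was at 396, 296, 224 and 282 CPM and Top2a at 397, 320, 226 and 301 CPM, so that poly I:C was lowest and control highest for both, with poly I:C ratios of 0.567 (0.542 to 0.594) and 0.569 (0.544 to 0.596). Bub1b, which encodes the spindle checkpoint protein BubR1, was at 39.7, 26.3, 19.2 and 22.1 CPM, and was lower than control with phenformin (0.661), with poly I:C (0.484) and in the combination (0.556). After thinning, the Bub1b ratio in the combination was 1.04 in place of 0.556. Ccnb1 was at 32.8, 29.8, 15.9 and 23.3 CPM and Plk1 at 19.7, 12.4, 9.49 and 16.0 CPM, with poly I:C lowest for both, at 0.486 (0.41 to 0.575) and 0.481 (0.386 to 0.599) times control. Bub1, Aurka, Tpx2, Kif11, Cenpe, Ccna2, Ube2c and Birc5 also passed the limit. These encode a checkpoint kinase, a centrosomal kinase, its activator, a spindle motor, a kinetochore motor, a cyclin, a ubiquitin-conjugating enzyme of the anaphase-promoting complex, and survivin. Ccnb2, Cdk1, Aurkb, Cdc20, Cenpa, Cenpf, Nusap1, Hmgb2, Ezh2, Stmn1 and Ccne2 (cyclin E2) lay between 0.6685 and 0.8305 times control.

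Adding phenformin to poly I:C went with a higher level in CD8 T cells. The combination was 1.34 times poly I:C alone (1.32 to 1.35) over the list, and all 35 members lay above 1. Ube2c, Plk1, Birc5, Ccnb2, Aurkb and Stmn1 passed the limit, or 6 of 35, where 0.816% of all genes were higher and 2.93% lower. Over the alternatives in processing this count ran from 2, in cells of a single gate, to 9. Ube2c was at 150, 131, 86.1 and 169 CPM, and the combination was 1.96 times poly I:C (1.84 to 2.1). Stmn1 was at 404, 393, 300.5 and 452 CPM, a ratio of 1.51 (1.45 to 1.56). For the 7 genes of licensing and the clamp the median log2 ratio of the combination to control was −0.44. The 4 genes of nucleotide supply went both ways, with log2 ratios of −0.55 for Rrm1, −0.01 for Tk1, 0.15 for Rrm2 and 0.53 for Tyms. Mcm2, Mcm3 and Bub1b were the 3 of 35 members lower than control, where 5.22% of all genes were lower and 3.71% higher. With phenformin alone Plk1 and Bub1b were lower and none was higher, against 1.45% and 0.977% of all genes, and in cells of a single gate no member was lower. Against phenformin no member passed in the combination, where 2.92% of all genes were higher and 1.66% lower.

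The cells behind these CD8 T values differed between libraries. Cells with at least 2 UMIs of naive and recirculating T cell genes were 50.8, 50.3, 33.0 and 25.1% of the gate. Within the cells under that limit the sums were 4922, 5189, 3881 and 5259 CPM, so that poly I:C was again lowest, the combination was the highest, and 8 in place of 20 members were lower with poly I:C. The cycling shares of these cells were 29.9% (25.6 to 34.4%), 33.6%, 25.5% (23.0 to 28.2%) and 35.0%, so poly I:C was lowest but its interval overlapped that of control. Macrophage markers (5 genes, none at 0) summed to 1008, 1214, 5245 and 2747 CPM in the CD8 T gate, and 49, 60, 190 and 137 of its cells also passed the macrophage gate. Without those cells the poly I:C sum was 0.749 times control and the combination was 1.24 times poly I:C. Among cycling CD8 T cells alone, the other 34 members held 7343, 6704, 6092 and 7149 CPM, and among the remaining cells 1486, 1456, 1305 and 1528 CPM. Poly I:C was lowest in both kinds of cell. The part of the macrophage RNA in the remaining gap was not tested.

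**Figure D4:**
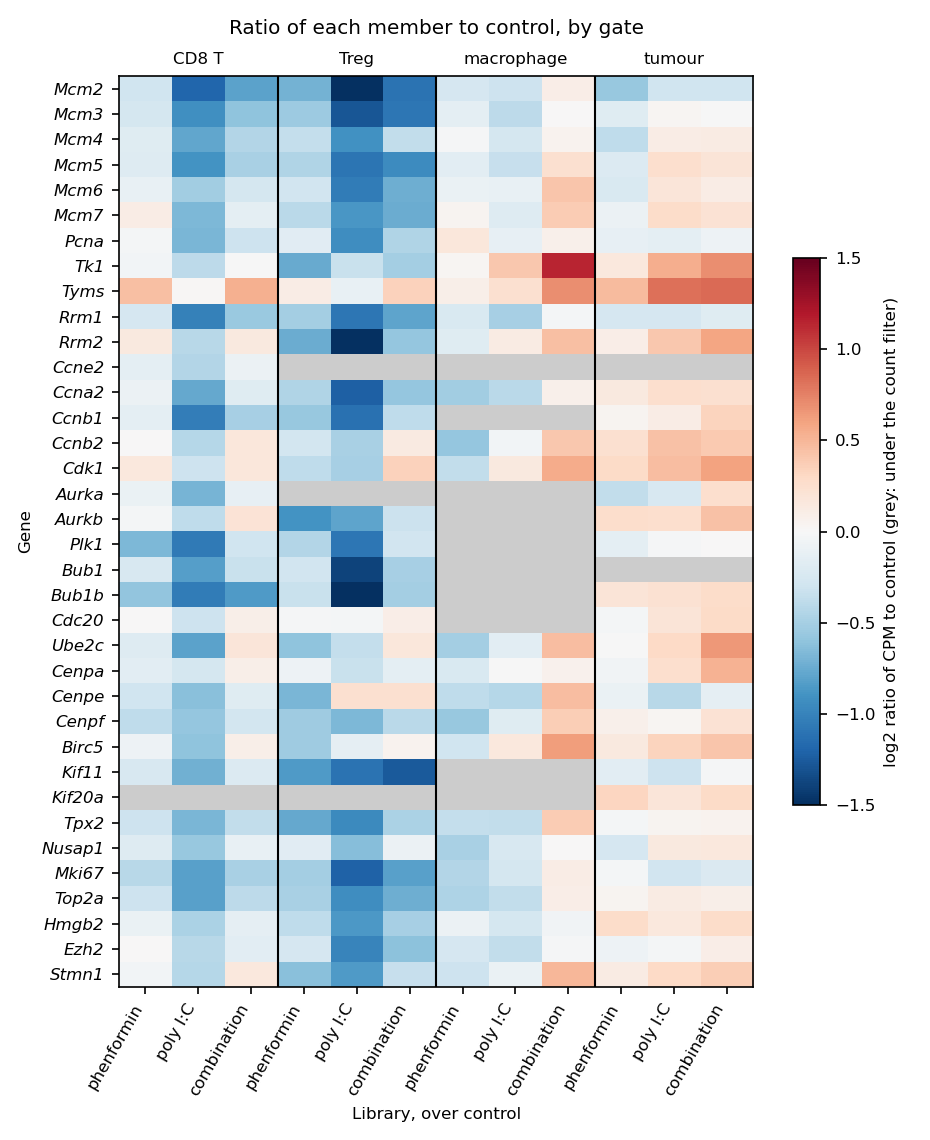
Log2 ratio of each member to control (colour, from −1.5 to 1.5, with values beyond it shown at its ends) for 3 libraries in each of 4 gates; grey marks members under the count filter. Poly I:C columns are blue for nearly all members in CD8 T and Treg cells, and the combination column of macrophages is mostly red, with the largest ratio of 2.2 for Tk1.

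In Treg cells the poly I:C library lay further below control. Their sum was 0.558 times control with poly I:C (0.541 to 0.576), 0.747 with phenformin and 0.721 in the combination. With poly I:C 24 of 33 members were lower and none higher, where 14% of all 7613 genes were lower and 9.84% higher. Bub1b was at 26.6, 21.2, 7.67 and 18.6 CPM, Mcm2 at 91.8, 56.0, 28.6 and 42.6 CPM and Rrm2 at 105, 63.1, 36.8 and 70.6 CPM, and each had its lowest value with poly I:C. Bub1 was at 18.8, 15.3, 7.16 and 13.3 CPM, in the same way. The poly I:C ratios of Bub1b, Mcm2 and Rrm2 were 0.289 (0.153 to 0.51), 0.312 (0.229 to 0.419) and 0.349 (0.265 to 0.454). Mki67 was at 352, 247, 152 and 200.2 CPM and Top2a at 394, 280.1, 207 and 237 CPM. Mcm5 was at 117, 85.9, 54.7 and 60.8 CPM, Pcna at 174, 154, 91.0 and 128 CPM and Stmn1 at 388, 251, 214 and 306 CPM, so control was highest for all 5. Of members picked out after their values were seen, Cdc20, the activator of the anaphase-promoting complex, was at 21.5, 21.2, 21.0 and 23.1 CPM, and Tyms at 63.7, 68.9, 58.8 and 80.8 CPM. With phenformin 9 members were lower against 4.33% of all genes, and in the combination 10 against 8.87%, among them Mcm2, Mcm3, Mcm5, Mcm6, Mcm7 and Rrm1. None was higher in either, against 2.57% and 5.92%. The combination had 6 members higher than poly I:C (Rrm2, Ccna2, Ccnb1, Ccnb2, Cdk1 and Bub1b; 4.05% of all genes higher, 6.7% lower) and 4 higher than phenformin (Cdk1, Ube2c, Cenpe and Birc5; 5.28% and 3.93%), with none lower in either.

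The Treg values rest on few cells, and the poly I:C gap was smaller without cells of several gates. Macrophage markers summed to 1178, 2647, 10052 and 5943 CPM in this gate, and 49.4% of its poly I:C cells passed another gate, against 29.3% in control. In cells of a single gate the poly I:C sum was 0.792 times control, without cells of the macrophage gate 0.696, after thinning 0.744, and as the mean over cells 0.718. After thinning 5 in place of 24 members were lower. The combination over poly I:C turned from 1.29 to 0.836 in cells of a single gate, with 1 member higher and 5 lower in place of 6 and 0. The cycling share did not differ beyond its intervals, at 31.9% (24.9 to 39.6%) against 34.3% (28.8 to 40.1%) in control.

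In macrophages the combination stood above the other libraries. Its sum was 1.13 times control (1.11 to 1.15), 1.3 times poly I:C (1.28 to 1.32) and 1.295 times phenformin (1.28 to 1.31). Of the 26 members that passed the filter, 12 were higher than with phenformin and none lower, where 4.08% of all 7331 genes were higher and 3.46% lower. Tk1 was at 12, 12.2, 15.8 and 26.4 CPM, and the combination lay far above the rest, at 2.17 times phenformin (1.92 to 2.45) and 2.2 times control (1.92 to 2.54). Ccnb2 was at 12.5, 8.35, 12.1 and 16.6 CPM, with a ratio to phenformin of 1.98 (1.71 to 2.31). Ube2c was at 33.6, 23.5, 30.1 and 46.5 CPM, with a ratio of 1.98 (1.81 to 2.16). Cenpf, Birc5, Cdk1, the kinase that cyclins A and B activate, Cenpe, Stmn1, Tpx2, Rrm2, Tyms and Ccna2 made up the rest. The sum in neutrophils, the background, was also highest in the combination, and its bearing on the macrophage sum was not tested.

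The clamp and some chromatin genes did not pass the limit in these cells. Pcna was at 75.3, 84.5, 68.9 and 79.3 CPM and Hmgb2 at 315, 296, 264 and 303 CPM, and for both the combination lay within the range of the other libraries. Mki67 was at 66.1, 48.8, 55.1 and 71.6 CPM and Top2a at 74.4, 54.1, 57.7 and 79.9 CPM, where both single treatments were below control and the combination slightly above it. Tyms was at 14.3, 15.2, 17.0 and 23.2 CPM and Birc5 at 33.6, 27.4, 37.4 and 52.1 CPM, both highest in the combination, at 1.62 (1.42 to 1.85) and 1.55 (1.42 to 1.69) times control. Mcm5 was at 25.3, 22.7, 19.8 and 29.9 CPM and Stmn1 at 71.4, 57.7, 66.4 and 101 CPM. Over control, Tk1, Tyms and Birc5 were the 3 of 26 members that were higher in the combination, against 3.81% of all genes higher and 4.23% lower. Over poly I:C they were 6 of 26 (Mcm5, Tk1, Ube2c, Cenpe, Tpx2 and Stmn1), against 1.08% higher and 1.31% lower. No member passed the limit with phenformin or poly I:C alone, where 0.437% and 2.58% of all genes were higher and 0.778% and 4.08% lower. With cells over 30000 UMIs left out, 13 members were lower with phenformin. Among cycling macrophages the other 34 members held 2917, 2517, 2482 and 3179 CPM, and among the rest 513, 510, 439 and 504 CPM, so the combination was highest in cycling cells only. Cd3 genes, a sign of T cells in the droplets, summed to 69.2, 57.4, 112 and 88.3 CPM here, and in cells of a single gate the combination was 1.39 times phenformin and 1.2 times control.

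In tumour cells the list was slightly higher in both poly I:C-treated libraries. The sum was 1.05 times control with phenformin, 1.14 with poly I:C, and in the combination 1.22 (1.2 to 1.24). Of 34 members, 5 were higher in the combination and none lower, where 2.02% of all 7442 genes were higher and 12% lower. They were Tyms, Tk1, Ube2c, Cdk1 and Rrm2. Tyms was at 40.2, 55.9, 71.6 and 72.3 CPM, with ratios to control of 1.78 (1.59 to 2) for poly I:C and of 1.79 (1.59 to 2.03) for the combination. Tk1 was at 105, 117, 153 and 170 CPM, with a ratio of 1.62 (1.5 to 1.75) in the combination. Ube2c was at 120.2, 119.7, 148 and 188 CPM, a ratio of 1.57 (1.46 to 1.69). Cdk1 was at 75.9, 92.9, 105 and 116 CPM, a ratio of 1.52 (1.39 to 1.67). Tyms alone passed the limit with poly I:C, against 1.6% of all genes higher and 16.6% lower, and no member did with phenformin, against 0.699% and 3.36%. Control was the lowest library for Tyms, Tk1 and Cdk1. Against poly I:C no member passed in the combination (0.672% of all genes higher, 0.497% lower), and against phenformin Aurka and Ube2c were higher and none lower (1.37% and 2.24%).

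Other members of the tumour cells did not pass the limit, and some lay below control. Mcm2, picked out after its values were seen, was at 33.2, 22.4, 27.0 and 26.9 CPM and was 0.811 times control in the combination (0.691 to 0.952). Mki67 was at 104, 102, 85.3 and 89.3 CPM, Top2a at 164, 169, 178 and 175 CPM, Mcm5 at 36.1, 31.3, 43.1 and 41.3 CPM and Pcna at 72.9, 66.8, 66.0 and 69.0 CPM. Stmn1 was at 102, 111, 125 and 131 CPM, with control lowest. The Mki67 ratios to control were 0.8195 with poly I:C and 0.859 in the combination, neither past the limit. They were 0.951 and 0.96 under TMM, and 1.12 and 1.57 with cells over 30000 UMIs left out, so the direction of Mki67 depends on the cells used. Depth was high in this gate, with a median of 25153 to 29810 UMIs per cell. Cd3 genes summed to 0.623 to 7.25 CPM here. Scaling by TMM, which sets the middle of all genes level, moved tumour log2 ratios up by 0.14, 0.21 and 0.16. The sums over control were then 1.32 with poly I:C and 1.37 in the combination, and with cells over 30000 UMIs left out the phenformin sum was 0.858 in place of 1.05.

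NK and dendritic cells held few dividing cells, so their values rest on a handful of cells each. Cycling cells numbered 19, 7, 10 and 16 in the NK gate and 19, 33, 26 and 18 in the dendritic gate. In NK cells the sum was 2450, 1729, 1851 and 2281 CPM, and 18 of 36 members passed the filter. Mki67 was at 168, 66.6, 81.7 and 116 CPM, with all treated libraries below control. Ube2c was at 36.8, 14.0, 37.0 and 10.0 CPM, Cenpf at 37.9, 10.5, 20.03 and 12.5 CPM and Rrm1 at 58.5, 29.8, 18.5 and 33.8 CPM. Top2a was at 147, 85.8, 128 and 132 CPM, Stmn1 at 210.0, 142, 166 and 284 CPM, Pcna at 84.4, 94.6, 69.3 and 111 CPM and Mcm5 at 36.8, 36.8, 24.7 and 38.8 CPM. No library was lowest for all of these. With phenformin 5 of the 18 were lower and none higher (4.83% and 3.41% of all genes), with poly I:C 4 and 0 (12.6% and 6.73%), and in the combination 4 and 1 (14.5% and 5.57%). The combination had 4 higher and 1 lower against poly I:C (5.26% and 8.6%) and the same numbers against phenformin (6% and 10.4%). Macrophage markers summed to 791, 4023, 6952 and 1401 CPM in this gate, and 6, 5, 11 and 5 of its cells also passed the macrophage gate. Without those cells the summed combination over poly I:C, 1.23 here, changed side, as given under the processing. The part of macrophage RNA in the NK values was not tested.

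In dendritic cells the sum was 1275, 1471, 1784 and 1129 CPM. Rrm2 was at 8.52, 26.2, 43.3 and 27.9 CPM and Tyms at 14.0, 32.0, 42.5 and 23.9 CPM, and control was the lowest library for both. Mcm5 was at 14.6, 32.0, 33.5 and 23.1 CPM, Pcna at 54.7, 69.4, 76.4 and 59.9 CPM and Stmn1 at 52.0, 77.3, 118 and 74.0 CPM. Mki67 was at 47.4, 77.0, 61.6 and 47.9 CPM and Top2a at 78.8, 53.5, 106 and 58.5 CPM. Cenpe was at 20.4, 7.05, 9.74 and 6.65 CPM and Cenpf at 47.4, 17.6, 13.6 and 10.2 CPM, with control highest. After thinning Cenpe turned to 5.46 times control with phenformin and 6.6 in the combination, and as the mean over cells to 1.26 and 1.18. The direction of Cenpf turned in all 3 comparisons with control after thinning, to ratios of 1.09, 1.085 and 1.65. With poly I:C 9 of 28 members were higher and 2 lower, against 5.41% and 9.92% of all genes. With phenformin they were 7 and 5 (2.57% and 5.32%), and in the combination 4 and 6 (6.51% and 6.69%). The combination had 14 lower and none higher against poly I:C (3.55% and 5.78%), and 7 and 0 against phenformin (3.86% and 8.05%). With cells over 30000 UMIs left out these were 1 and 1 lower in place of 14 and 7, with 2 and 10 higher, and the sum was 0.955 in place of 0.633 times poly I:C. Macrophage markers summed to 1186, 1455, 3631 and 4679 CPM in this gate, and their part in these values was not tested.

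The balance of UMIs between S phase members and members of G2 and mitosis differed between gates and libraries. It was taken over all cells of a gate and does not give the phase of cycling cells. Pcna and Mcm4, both S phase members, had 53.2% and 56.7% of their UMIs in cycling cells. The part of the other cells in these shares was not tested. The 21 members of G2 and mitosis gave 64.3, 61.8, 65.2 and 66.3% of the UMIs of both sub-lists in CD8 T cells, next to the 12 of S phase. Phenformin was lowest there (61.27 to 62.3%), below the control interval (63.82 to 64.85%). In tumour cells they gave 69.8, 71.5, 68.8 and 70.0%, with phenformin highest. Macrophages had 57.7% (56.9 to 58.4%) in control, 51.6% (50.9 to 52.3%) with phenformin, 57.7% with poly I:C and 58.2% in the combination, so phenformin alone stood lower. In Treg cells both poly I:C-treated libraries lay higher, at 64.7% and 64.3% against 59.7% and 59.5%. NK cells had 58.5, 48.6 (44.2 to 53.0), 65.0 (61.2 to 68.7) and 56.8%, with phenformin lowest, and dendritic cells 68.7, 53.8, 58.5 and 51.3%, both on few cycling cells.

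The cycling cells recovered were mostly in the CD8 T and macrophage gates in each library. Of 988, 887, 1141 and 1501 cycling cells, 35.0, 41.6, 40.3 and 45.1% were in the CD8 T gate and 27.1, 32.5, 34.3 and 32.3% in the macrophage gate. Tumour cells were 10.4, 6.88, 19.0 and 9.86%, the poly I:C library being the highest. Treg cells were 9.82, 8.57, 4.65 and 5.4%, lower in both libraries with poly I:C. These shares depend on how many cells of each kind the beads recovered.

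Other genes of the cell cycle came from lists that hold none of the 36. In CD8 T cells with poly I:C 10 of 29 other replication genes were lower and none higher (8.07% and 5.89% of all genes), with Uhrf1, which maintains DNA methylation, at 34.8 CPM against 74.8 in control. Of 32 other mitosis genes 12 were lower and none higher, against the same shares, with the condensin subunit Ncapd2 at 21.4 CPM against 47.5. Of 18 genes of G1 control 5 were lower and 1 higher, again beside 8.07% and 5.89%. The higher gene, Cdkn1a, which encodes the Cdk inhibitor p21, stood at 156 CPM against 88.0, a ratio of 1.77 (1.64 to 1.92). It was 95.1 CPM in the combination, 0.609 times poly I:C. In Treg cells Cdkn1a was also higher with poly I:C, at 234 CPM against 131. Macrophage markers were higher with poly I:C in both gates as well. They summed to 5245 CPM against 1008 in control in CD8 T cells, and to 10052 against 1178 in Treg cells. The part of macrophage RNA in the Cdkn1a values was not tested. In macrophages of the combination 3 of 18 replication genes and 3 of 12 mitosis genes were higher than control and none lower (3.81% and 4.23% of all genes), with Gins2 of the replicative helicase at 16.9 CPM against 10.4 and Spc24 of the kinetochore at 20.1 against 11.7. In tumour cells of the combination they were 5 of 24 and 3 of 30, with none lower (2.02% and 12%). Cdc45, another helicase partner, was at 15.3 CPM against 8.6 in control, a ratio of 1.78 (1.37 to 2.34). The G1 kinase Cdk6 was lower there, at 65.5 CPM against 108, and Ccne1 (cyclin E1) was at 14.4 CPM against 8.9, a ratio of 1.62 (1.24 to 2.13).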

How the data were processed

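Whole-number UMI counts of each gene in each barcode were deposited for the 4 libraries, with no normalization by the authors. The submitters' processing notes name Cell Ranger 3.1.0 and the builds mm10 and GRCm38. Annotation release and later filters were not stated there. Each library holds 6539 to 9303 barcodes.

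Cells were filtered and gated on raw UMIs, counts were summed per gate, and CPM intervals are exact Poisson intervals. Ratios have the exact interval conditional on the total, and shares have Clopper-Pearson intervals. No doublet caller was run. Cells in several gates were counted and left out as an alternative. TMM factors came from edgeR 4.0.16 in R 4.3.3; the rest used Python 3.11.15, numpy 2.4.6, scipy 1.17.1 and pandas 2.3.3. The members and lists were chosen with earlier results of these data known.

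All 36 members are named. Values in every library are given for up to 4 members per gate with the largest log2 ratio to control among those past the limit, and for Mki67, Top2a, Mcm5, Pcna and Stmn1. Some members were given outside this rule, among them Rrm1 and Ube2c in CD8 T cells. Ccnb2, Ube2c and Hmgb2 in macrophages were also outside it. On simulated counts for CD8 T cells, poly I:C against control (7555 genes), all 100 genes changed 2-fold were called and 3 of 7355 unchanged genes. For NK cells (7586 genes) 68 of 100 were called at 2-fold and 88 of 100 at 3-fold, with 190 of 7386 unchanged genes. The simulated counts held Poisson counting error only, with no variation between cells, animals or droplets. They also needed 10 CPM but not 60 UMIs. These numbers are therefore not error rates of the real libraries.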

Additional observations from a re-analysis of the deposited data

Results flagged for a closer look

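The ratio of the summed level with phenformin to that without it went in opposite directions in saline-treated and in poly I:C-treated libraries in several gates. With 1 library per treatment this difference was not tested. The ratio in poly I:C-treated libraries divided by that in saline-treated libraries was 1.417 over all cells, 1.472 in CD8 T cells, 1.728 in Treg cells, 1.747 in NK cells and 1.49 in macrophages. In dendritic cells it was 0.5484, since there phenformin went with a higher level in saline-treated and a lower one in poly I:C-treated mice. In cells of a single gate the Treg, NK and dendritic ratios of combination to poly I:C or of phenformin to control changed side, as given under the processing.

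Cells that passed no gate also held cycling cells. They were 8.732% of such cells in control, 8.338% with phenformin, 6.36% with poly I:C and 6.172% in the combination, above the 0 to 1.42% of neutrophils. Neutrophils had medians of 1844 to 2189 UMIs per cell, and the cycling cells outside the gates 6472 to 14345. These shares were not compared at matched depth. Of these 197, 141, 105 and 179 cycling cells, 36.5, 40.4, 32.4 and 44.7% had a UMI of a Cd3 gene and 79.3 to 85.8% a UMI of Ptprc, the gene of CD45.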

How the results depend on the processing

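Of 325 recomputed ratios of the summed level 281 kept their direction and their side of the limit, as did 222 of 255 ratios of cycling shares. Before any alternative, only 2 of 35 ratios of the summed level and 0 of 35 of cycling shares were past the 1.5-fold limit. Keeping the side of the limit therefore mostly means staying short of it. No replicate was left out. No paired analysis was possible because each treatment had 1 library. Unless a value shows otherwise, the cause of a change was not tested. Every value below is a ratio of the summed level unless cycling or a gene is named.

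Leaving out CD8 T cells with 2 or more naive UMIs gave 1.054 for phenformin over control, 1.068 for the combination over control and 1.013 over phenformin, and cycling ratios of 1.171 and 1.041 for the latter pair. TMM gave 1.03 for NK cells, combination over control. Cells with 500 genes and under 10% mitochondrial UMIs gave 0.641 for NK, phenformin over control, and a cycling ratio of 0.9863 over all cells. Leaving macrophage-gate cells out of the T and NK gates, chosen after seeing the data, gave 1.013 for CD8 T, combination over phenformin, 0.696 for Treg, poly I:C over control, and 0.9067 for NK, combination over poly I:C. Without Hmgb2, also chosen after seeing the data, CD8 T poly I:C over control was 0.6512 and NK combination over control 1.018. Without the 3 highest members these were 0.6179 for CD8 T, 0.6722 for dendritic combination over poly I:C and 0.9996 for tumour phenformin over control.

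Without cells over 30000 UMIs the combination over phenformin was 1.055 in CD8 T, 1.051 in Treg, 1.551 in macrophages, 1.118 in dendritic and 1.513 in tumour cells. Phenformin over control was 0.6491 in Treg and 0.8578 in tumour cells, and the dendritic combination was 1.234 over control and 0.9548 over poly I:C. Cycling ratios were 0.9494 (phenformin) and 0.9856 (poly I:C) over all cells, 1.621 for macrophages, combination over phenformin, and 0.7154 for tumour phenformin. Dendritic genes reversed here: over control in the combination Cenpf 1.114, Cenpe 1.283 and Cdc20 1.744, over poly I:C Cdc20 1.253, Birc5 1.06 and Top2a 1.142, and over phenformin Ube2c 1.529 and Mki67 1.033.

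Cycling from 1 UMI gave 0.9487 over all cells and 0.9571 in CD8 T cells for phenformin over control, 2.186 for NK combination over poly I:C, and dendritic ratios of 0.9017 (poly I:C), 0.9097 (combination) and 1.009 (combination over poly I:C). Cycling from 4 UMIs gave 0.9918 over all cells with phenformin, 1.685 in macrophages, combination over phenformin, 3.09 in dendritic cells with poly I:C and 1.037 in tumour cells, combination over poly I:C.

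Cells of a single gate gave 1.007 for CD8 T, combination over phenformin. Treg values were 0.7922 for poly I:C and 0.662 for the combination over control, and 0.8357 for the combination over poly I:C. NK combination over poly I:C was 0.9144, and dendritic values were 0.8819 for phenformin and 0.7417 for combination over poly I:C. Cycling ratios were 0.998 (CD8 T phenformin), 1.082 (Treg poly I:C) and 0.9832 (dendritic combination). Dendritic combination over phenformin reversed for Ccnb2 (1.067) and Ube2c (1.203).

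Gates raised by 1 UMI gave 1.007 for CD8 T, combination over phenformin, 1.013 and 1.089 for NK poly I:C and combination, and 1.504, 1.123 and 0.7472 for dendritic poly I:C, combination, and combination over poly I:C. The Treg cycling ratio of combination to phenformin was 1.014. Dendritic Cenpf reversed with phenformin (1.929) and poly I:C (2.399), Cenpe in the combination (1.1) and Tk1 in the combination over poly I:C (1.798).

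Means over cells gave 1.049 for CD8 T and 1.002 for Treg, combination over phenformin, 0.7184 for Treg poly I:C, and 1.085 and 0.768 for the dendritic combination over control and over poly I:C. Ccnb1 in Treg, combination over poly I:C, reversed to 0.9938. Dendritic reversals were Cenpe (1.264) and Cenpf (1.189) with phenformin, Cenpe (1.181) and Cdc20 (1.483) in the combination, and Ube2c (1.231) over phenformin.

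Thinning to 2000 UMIs gave 1.024 for CD8 T, combination over phenformin, 0.744 for Treg poly I:C, and 1.079 and 0.8467 for the dendritic combination over control and over poly I:C. Cycling ratios were 0.8718 and 0.9269 over all cells with phenformin and poly I:C, and 0.9527 and 0.6502 in CD8 T cells. They were 1.209 (over poly I:C) and 1.301 (over phenformin) for the Treg combination, 0.9321 for macrophage poly I:C, 1.52 and 2.119 for the macrophage combination over poly I:C and phenformin, 1.208 for dendritic combination over phenformin, and 0.8628 and 0.7807 for the tumour combination over control and phenformin. Bub1b in CD8 T, combination over control, reversed to 1.04 and Cenpe in Treg with phenformin to 1.085. Dendritic reversals were Cenpe 5.46 and Cenpf 1.092 with phenformin, Cenpf 1.085, Ccnb2 0.4822 and Mcm5 0.9042 with poly I:C, Cenpf 1.649, Cenpe 6.597 and Cdc20 1.319 in the combination, and Ccnb2 3.648 over poly I:C.

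Counts of members past the limit moved with the cells used. CD8 T members lower with poly I:C were 8 to 21 in place of 20 and Treg members 5 to 26 in place of 24. Members higher in the combination than with phenformin were 10 to 19 in macrophages in place of 12, and those higher than control in tumour cells 4 to 11 in place of 5. Macrophage members lower with phenformin were 0 to 13 in place of 0, with 13 when cells over 30000 UMIs were left out. Tyms in CD8 T cells of the combination passed the limit under TMM (1.521), in cells with under 2 naive UMIs (1.647) and as the mean over cells (1.535). The few cycling cells of the NK and dendritic gates limit what can be read from them. NK cells were also shallow, with medians of 3262 to 4099 UMIs. In the dendritic gate 30.3 to 45.8% of cells passed another gate.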
